A study of Mus musculus with 6 samples.

Results

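The mitochondrial respiratory chain genes were compared between 2 astroglial fractions of the neonatal mouse cerebellum, which had been separated by the surface antigens ACSA-2 and GLAST. Members were all non-control probes whose gene name begins with Nduf, Cox4 to Cox8, Atp5 or Uqcr, or is Sdha to Sdhd, Cyc1 or Cycs. This rule found 140 of the 55681 probes and 95 of the 31983 gene symbols on the array. Of the 95 genes, 85 had a higher mean signal in A+/G+ cells (ACSA-2 positive), and the median difference over all 95 was 0.35 on the log2 scale or 1.28-fold. With limma and Benjamini-Hochberg adjustment, 15 genes of complexes I to V and cytochrome c were called higher in A+/G+ cells, whereas A-/G+ cells had 0 such genes. Over all genes tested, 6.03% were called higher in A+/G+ cells and 4.94% in A-/G+ cells. The count of 15 ranged from 0 to 39 with single arrays left out. It was 3 when each array was shifted to its 75th percentile. The 13 respiratory chain subunits that the mitochondrial genome itself encodes had the opposite sign, with a lower mean in A+/G+ cells for all 13.

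The respiratory chain lies in the inner mitochondrial membrane. Complex I (NADH dehydrogenase) and complex II (succinate dehydrogenase) pass electrons to ubiquinone, complex III hands them to the small carrier cytochrome c, and complex IV (cytochrome c oxidase) passes them to oxygen. Complexes I, III and IV pump protons, and complex V (ATP synthase) uses the gradient to make ATP. Most subunits are encoded in the nucleus and imported, whereas some of the catalytic and membrane subunits of complexes I, III, IV and V are encoded by mitochondrial DNA and all of complex II is nuclear. In the brain, astrocytes are known for a high rate of glycolysis beside an active respiratory chain.

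The cells came from wild-type mice of either sex, with pooled cerebella and 50000 cells per sample. The labels give the strain CD1 and postnatal days 1 to 3, whereas the study's methods name a C57BL/6 background for wild-type mice in general and days 0 and 1 for the arrays. The 3 A+/G+ samples were isolated in 1 positive step with magnetic beads against ACSA-2. The 3 A-/G+ samples were first depleted of cells carrying L1CAM, ACSA-2, CD45, PSA-NCAM or Ter119, and the remaining cells were then selected for GLAST. Both fractions are sorted cell mixtures and not single cell types. RNA was amplified and labeled with Cy3, and each sample was hybridized to 1 array with 62976 spots.

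The A-/G+ arrays were dimmer. The 75th percentile of the intensity was 332 to 334 on the A+/G+ arrays, and it was 56.6, 113 and 251 on A-/G+ replicates 1, 2 and 3. Slide 1 held the A+/G+ arrays and slide 2 the A-/G+ arrays, and therefore slide and fraction cannot be told apart. Atp1b2, whose product carries the ACSA-2 epitope, was higher in A+/G+ by 2.17 ± 0.18 (SE, n = 3 and 3, limma adjusted p = 0.00719). Slc1a3, which encodes GLAST, lay 1.19 ± 0.28 (SE) lower in A+/G+ (difference -1.19, adjusted p = 0.0727). All 14 astroglial markers tested passed the scanner's background test on all 6 arrays. Of these, 8 had a higher mean in A+/G+ (3 called) and 6 in A-/G+ (1 called). The mean of the 13 with a value on all arrays was 12.67, 12.59 and 12.72 in A+/G+. In A-/G+ it was 12.37, 12.54 and 11.70. The labels do not say which animals went into which sample, and the smallest two-sided exact permutation p for 3 samples per fraction is 0.1.

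Signals are given as quantile-normalized log2 intensities, and a difference is the mean of A+/G+ minus the mean of A-/G+. A gene takes the value of its probe with the highest mean. It was called when the adjusted p over all probes was at most 0.05. Of the 95 members, 89 were well above background on all 6 arrays, 1 was not on any array (Cox8c) and 0 were saturated. Spots that the scanner software had marked as outliers were not used, which removed 12 values in 10 member genes.

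Of all 31964 genes tested, 6.03% were called higher in A+/G+, compared to 15 of the 95 members (15.8%). In the other direction, 4.94% of all genes and 0 members were called, and 0 members with the methods' t-test. At an unadjusted limma p under 0.05 it was 1 member, Cox8c. All A-/G+ values exceeded all A+/G+ values in 2 members and in 8003 of the 31983 genes. These members were Ndufc2, with 1 A+/G+ value, and Cox8c, not well above background on any array. Among genes well above background on all 6 arrays, 7.99% were called higher in A+/G+, compared to 15 of 89 members (16.9%). The lowest A+/G+ array exceeded the highest A-/G+ array in 63 of the 95 members and in 16.2% of all genes. The differences of the members were small, with quartiles of 0.18 and 0.55. No member had medians at least 4-fold apart together with a call, whereas 2.54% of all genes did, in either direction. At an unadjusted limma p under 0.05, 57 members were higher in A+/G+. In either direction, 58 of the 95 members and 8682 of the 31983 genes had such a p. The median difference of all genes was -0.04. It was -0.03 in the 2206 genes whose mean signal lay between the quartiles of the members (11.09 and 13.35), of which 8.98% were called higher in A+/G+. The 84 cytosolic ribosomal protein genes measured, another large and bright gene family, had a median difference of -0.04 with 0 calls in either direction and 8 unadjusted p under 0.05.

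When each array was instead shifted to its 75th percentile, the median of the members was 0.18 and that of all genes -0.63. The median of genes well above background on all arrays was then -0.13. On this scale 76 of the 95 members had a higher mean in A+/G+. The members called higher in A+/G+ were 3 (Cox7a1, Ndufa8 and Ndufa4l2), with 5.68% of all genes. The members called higher in A-/G+ were 2 (Cox7b2 and Cox8c, which failed the scanner's background test on all A-/G+ arrays), with 23.6% of all genes. The size of the member differences thus depended on the scaling, while their median stayed above that of all genes under both.

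**Figure D1:**
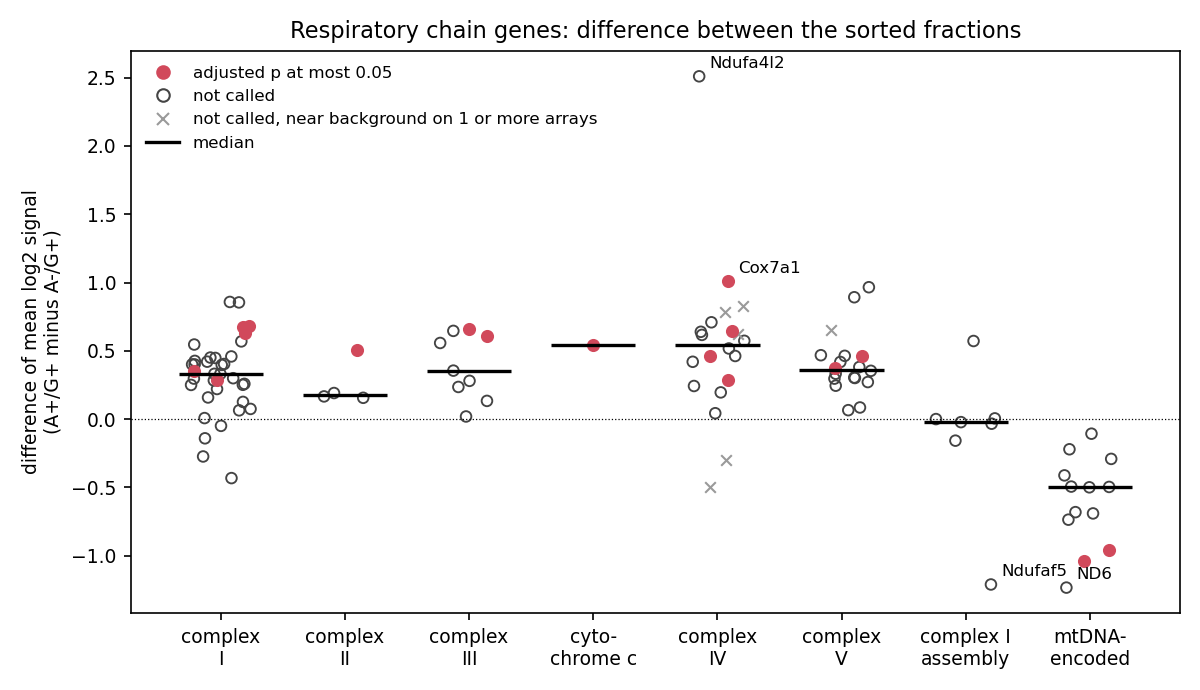
Difference of mean normalized log2 signal (A+/G+ minus A-/G+) of each respiratory chain gene, grouped by complex, with the 13 mitochondrially encoded (mtDNA) subunits at the right. Each point is 1 gene, filled red points have an adjusted p of at most 0.05, crosses are genes near background on 1 or more arrays and bars are medians, which lie between 0.18 and 0.55 for complexes I to V, at -0.02 for the complex I assembly factors and at -0.50 for the mtDNA-encoded subunits.

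The call count depended on single arrays. It was 0, 0 and 1 without A+/G+ replicate 1, 2 or 3, and 5, 4 and 39 without A-/G+ replicate 1, 2 or 3. Over all probes the calls higher in A+/G+ numbered 2582 with 6 arrays, 814 to 1020 without an A+/G+ array, and 1872, 1760 and 4442 without A-/G+ replicate 1, 2 or 3. The median over the members ranged from 0.28 to 0.37 when single arrays were left out, and all 15 called genes kept a higher mean in A+/G+ in each case. Over the 85 member genes with a value on all arrays, the mean deviation from each gene's own mean was 0.22, 0.18 and 0.15 in A+/G+ and -0.25, -0.23 and -0.06 in A-/G+. The fractions did not overlap, and A-/G+ replicate 3, the brightest array of its fraction, lay closest to A+/G+. The part of array brightness in the member differences was not tested.

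Promoter sequences are given for the called members whose promoter holds a known motif of respiratory gene factors. RefSeq promoters (GRCm38.p6, 250 bases before to 50 after the start) were found for 74 of the 95 members (79 windows). The motif GCGCANGCGC, that of NRF1, was present on either strand in 25.3% of the member windows and 4.6% of all 32851 windows. CCGGAAG, bound by ETS factors, was present in 21.5% compared to 8.86%, and AAGATGG, bound by YY1, in 12.7% compared to 6.34%. TCAAGGTCA, bound by estrogen-related receptors, was present in 2 member windows (2.53% compared to 0.423%). No motif overlaps another among those in the printed windows. Of the 74 members with a promoter, 40 held at least 1 of these motifs, compared to 3 of the 12 called members among them, and this difference was not tested. A match is no evidence of binding. The 250 bases before the start are printed for Sdhd (chr9:50603850-50604099, minus strand), Atp5j (chr16:84834977-84835226, minus strand) and Ndufa5 (chr6:24527691-24527940, minus strand), in lower case from 5′ to 3′ with the motifs in capitals.
Sdhd: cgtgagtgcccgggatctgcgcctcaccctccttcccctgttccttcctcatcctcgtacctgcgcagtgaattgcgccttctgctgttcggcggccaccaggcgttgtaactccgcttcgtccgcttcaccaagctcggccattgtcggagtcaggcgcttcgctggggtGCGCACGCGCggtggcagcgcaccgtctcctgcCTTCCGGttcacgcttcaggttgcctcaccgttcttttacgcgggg
Atp5j: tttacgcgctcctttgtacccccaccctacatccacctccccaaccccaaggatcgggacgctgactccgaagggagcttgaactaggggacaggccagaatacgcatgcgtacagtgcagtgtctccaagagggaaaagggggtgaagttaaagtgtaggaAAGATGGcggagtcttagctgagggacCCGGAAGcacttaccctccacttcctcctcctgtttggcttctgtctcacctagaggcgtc
Ndufa5: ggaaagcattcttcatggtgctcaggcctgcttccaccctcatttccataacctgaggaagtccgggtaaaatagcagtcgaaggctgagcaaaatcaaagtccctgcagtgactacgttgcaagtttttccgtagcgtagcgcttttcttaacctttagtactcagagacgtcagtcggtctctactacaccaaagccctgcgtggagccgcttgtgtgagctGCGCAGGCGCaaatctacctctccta
In Sdhd the NRF1 motif lies 79 bases and the ETS motif 46 bases before the start, and the receptor motif lies 36 bases after it, outside the printed stretch. In Atp5j the ETS motif lies 61 and the YY1 motif 88 bases before it, and in Ndufa5 the NRF1 motif lies 26 bases before it. Ndufa5 has another RefSeq start, and the same NRF1 motif lies 190 bases before that one. The window of another Atp5j start held none of the 4 motifs. The other 9 called genes with a promoter held none of the 4 motifs in their windows.

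Regarding complex I, 32 of 36 subunits had a higher mean in A+/G+ and 5 were called (median 0.33). Accessory subunits surround the catalytic core. Of the 29 measured, 27 were higher in mean and 5 were called (median 0.40), compared to 5 and 0 of 7 nuclear-encoded core subunits (median 0.22). This split was made after the values had been seen and was not tested. The 10 Ndufb subunits, part of the proton-pumping membrane arm, had differences of 0.33 to 0.68. Ndufb10 had signals of 13.33, 13.37 and 13.36 in A+/G+ and 12.48, 12.63 and 12.90 in A-/G+ (0.68 ± 0.12 (SE), adjusted p = 0.0359). Ndufb9 had signals of 13.48, 13.41 and 13.36 compared to 12.52, 12.70 and 13.00 (0.68 ± 0.14 (SE), adjusted p = 0.0497). In both genes the A+/G+ arrays lay close together, and A-/G+ replicate 3 was the nearest of its fraction. Ndufb11 was called with values from 2 A+/G+ arrays (13.90 and 13.81), compared to 13.10, 13.27 and 13.32 in A-/G+ (0.63 ± 0.10 (SE), adjusted p = 0.0393).

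Ndufab1, the mitochondrial acyl carrier protein that is also a subunit of complex I, had the smallest spread of the called complex I genes. Its signals were 12.55, 12.53 and 12.50 in A+/G+ and 12.22, 12.23 and 12.26 in A-/G+, a difference of 0.29 ± 0.05 (SE, adjusted p = 0.0297). The second Ndufab1 probe, also well above background on all arrays, was not called and its fractions overlapped (0.20, adjusted p = 0.514). Ndufa5, an accessory subunit of the peripheral arm and 1 of the 3 called genes with a motif in the promoter, was higher in A+/G+ by 0.35 ± 0.07 (SE, adjusted p = 0.0442). The second Ndufa5 probe, with 2 A+/G+ values, was not called (0.29, adjusted p = 0.12). The largest mean differences in the complex belonged to 2 genes that were not called. Ndufa8 had signals of 8.37, 8.01 and 7.87 compared to 7.08, 7.06 and 7.54 (difference 0.86, adjusted p = 0.0688). Ndufa1 had a difference of 0.85 (adjusted p = 0.0958), in which A-/G+ replicate 1 at 11.96 lay below the other two A-/G+ arrays at 12.72 and 12.70. The lowest differences were those of Ndufc2 (-0.43, 1 A+/G+ value, adjusted p = 0.32) and of the core subunit Ndufv2. Ndufv2 had signals of 11.24, 12.23 and 12.19 compared to 12.28 and 12.03, with overlap (-0.27, adjusted p = 0.684). Its difference was 0.05 without A+/G+ replicate 1 and 0.26 with normexp background correction.

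The 7 complex I assembly factors of the Ndufaf group, which help build the complex but are not part of it, had a median difference of -0.02, with 3 of 7 higher in mean in A+/G+ and 0 called (1 unadjusted p under 0.05). Ndufaf5 had signals of 6.68, 6.31 and 6.26 in A+/G+ and 8.65, 7.95 and 6.29 in A-/G+ (-1.21, adjusted p = 0.363). Its A-/G+ replicate 3 lay within the range of A+/G+, and this was its only probe well above background on all arrays. A further 34 assembly factors of complexes I to V outside the member rule had a median of 0.10. Of these, Cox14 (0.42, adjusted p = 0.0492), an assembly factor of complex IV, was called higher in A+/G+. Bcs1l (-0.35, adjusted p = 0.0347), which inserts the Rieske protein into complex III, was called higher in A-/G+.

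For all 4 complex II genes the A+/G+ mean was the higher one, with a median of 0.18, the lowest of the complexes. Sdhd, a membrane anchor of the complex whose promoter holds the NRF1 and ETS motifs (probe at chr9:50404630-50404689, mm9), was called. Its signals were 12.06, 12.12 and 12.03 in A+/G+ and 11.46, 11.56 and 11.67 in A-/G+ (0.50 ± 0.07 (SE), adjusted p = 0.0229), without overlap. The flavoprotein Sdha had a difference of 0.16 (95% CI -0.09 to 0.40), the iron-sulfur protein Sdhb 0.19 (0.04 to 0.34) and the other anchor Sdhc 0.17 (-0.02 to 0.36), and these 3 were not called. With the 75th percentile shift the difference of Sdhb was -0.01.

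In complex III, the mean of all 9 genes was higher in A+/G+ and 2 were called (median 0.36). Uqcrfs1, the Rieske iron-sulfur protein that takes electrons from ubiquinol, had the lowest adjusted p of all members. Its signals were 11.71, 11.73 and 11.59 in A+/G+ and 10.92, 11.06 and 11.07 in A-/G+ (0.66 ± 0.07 (SE), 1.58-fold, adjusted p = 0.0133; probe at chr13:30632363-30632422, mm9). Uqcr10, a small subunit, was higher by 0.61 ± 0.10 (SE, adjusted p = 0.0304). Cyc1, the cytochrome c1 that receives electrons from the Rieske protein, had signals of 13.01, 13.06 and 12.99 compared to 13.01, 12.88 and 13.11, with overlap. Its difference was 0.02 (95% CI -0.18 to 0.21) and -0.14 with the 75th percentile shift. Uqcr11 (0.65, adjusted p = 0.0644) and Uqcrc1 (0.13, adjusted p = 0.6), a core protein of the complex, were not called. Cytochrome c itself (Cycs) was called, with signals of 12.42, 12.60 and 12.51 in A+/G+ and 11.89 and 12.03 on the 2 A-/G+ arrays with a value (0.54 ± 0.09 (SE), adjusted p = 0.0492). A second probe well above background had a difference of 0.57.

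Complex IV had the highest median, 0.55, with 18 of 20 genes higher in mean in A+/G+ and 4 called. The median was 0.52 over its genes well above background on all arrays. Cox6c, a small nuclear-encoded subunit, had signals of 13.14, 12.96 and 12.96 in A+/G+ and 12.44, 12.25 and 12.42 in A-/G+ (0.65 ± 0.09 (SE), adjusted p = 0.0195). Cox5a had signals of 14.15, 14.08 and 14.10 compared to 13.60, 13.76 and 13.59 (0.46 ± 0.07 (SE), adjusted p = 0.0264). Neither gene showed overlap between the fractions, as was the case for all called members in the plot by array. The call rests on the same values, so that this is no separate support.

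**Figure D2:**
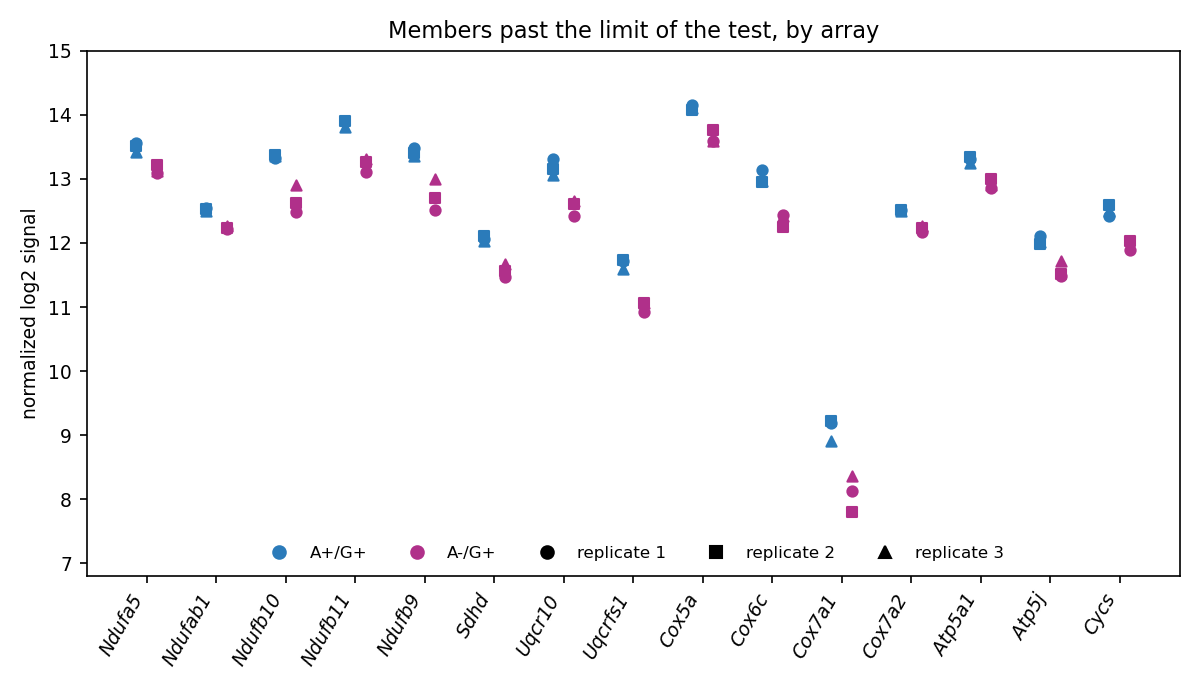
Normalized log2 signal of the 15 called member genes on each array, ordered by complex. Each point is 1 array, blue for A+/G+ and magenta for A-/G+, with the replicate given by the marker; in every gene all A+/G+ points lie above all A-/G+ points, and Cox7a1 has the largest difference (1.01).

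Several complex IV subunits exist as a widely expressed form and as a form restricted to certain tissues. Cox7a1, the heart and skeletal muscle form (probe at chr7:30970337-30970948, mm9), had the largest difference among the called members. Its signals were 9.19, 9.23 and 8.91 in A+/G+ and 8.13, 7.81 and 8.37 in A-/G+ (1.01 ± 0.18 (SE), 2.01-fold, adjusted p = 0.0362). Its widely expressed counterpart Cox7a2 was higher by 0.29 ± 0.05 (SE, adjusted p = 0.035). Cox7a2l, a factor for the assembly of respiratory supercomplexes, had a difference of 0.04 (adjusted p = 0.842), which was -0.21 with the 75th percentile shift. The genes of the skeletal and cardiac muscle list were low, with 1 of 14 well above background on all arrays. Of the 14, 3 were called higher in A+/G+ and 1 (Myh8) in A-/G+.

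Ndufa4l2, the hypoxia-inducible relative of the complex IV subunit Ndufa4, had the largest mean difference of all members (probe at chr10:126954149-126954208, mm9). Its signals were 9.22, 9.30 and 9.32 in A+/G+ and 6.23, 6.04 and 8.03 in A-/G+, without overlap. The difference of 2.51 ± 0.57 (SE), or 5.7-fold, had an adjusted p of 0.0658. It was called after the 75th percentile shift (2.48 with an adjusted p of 0.0486), with normexp (1.85, adjusted p = 0.014), with the filter on dim probes (adjusted p = 0.0237), with trend and robust variance (adjusted p = 0.044) and without A-/G+ replicate 3 (3.14, adjusted p = 0.00397), whereas leaving out any other array gave adjusted p-values of 0.14 to 0.199. Ndufa4l2 was also not called with the methods' t-test, with outlier spots kept or with the replicate block. Ndufa4 had a difference of 0.46 ± 0.11 (SE, adjusted p = 0.0671). Cox4i2, the isoform of Cox4 known from lung and oxygen-sensing cells, had signals of 5.97, 6.42 and 6.25 compared to 5.43, 5.45 and 5.89 (0.62, adjusted p = 0.119). It was well above background on 2 of the 3 A-/G+ arrays, so that its difference is uncertain. Its widely expressed counterpart Cox4i1 had a difference of 0.42 (adjusted p = 0.287).

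Ndufa4l2 and Cox4i2 are also known as transcripts of brain pericytes, the mural cells of capillaries. All 12 pericyte markers had a higher mean in A+/G+ and 6 were called (median difference 2.22). The mean signal of the 10 markers with a value on all arrays was 9.18, 9.40 and 9.35 in A+/G+ and 7.11, 7.04 and 7.84 in A-/G+. Rgs5 had signals of 10.17, 10.26 and 10.21 compared to 6.81, 7.32 and 8.70. A-/G+ replicate 3 was thus the highest of its fraction for this list and for both genes. The part of pericytes in the 2 isoforms was not tested. In sorted bulk samples, fewer cells of a type and less RNA per cell cannot be told apart.

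**Figure D3:**
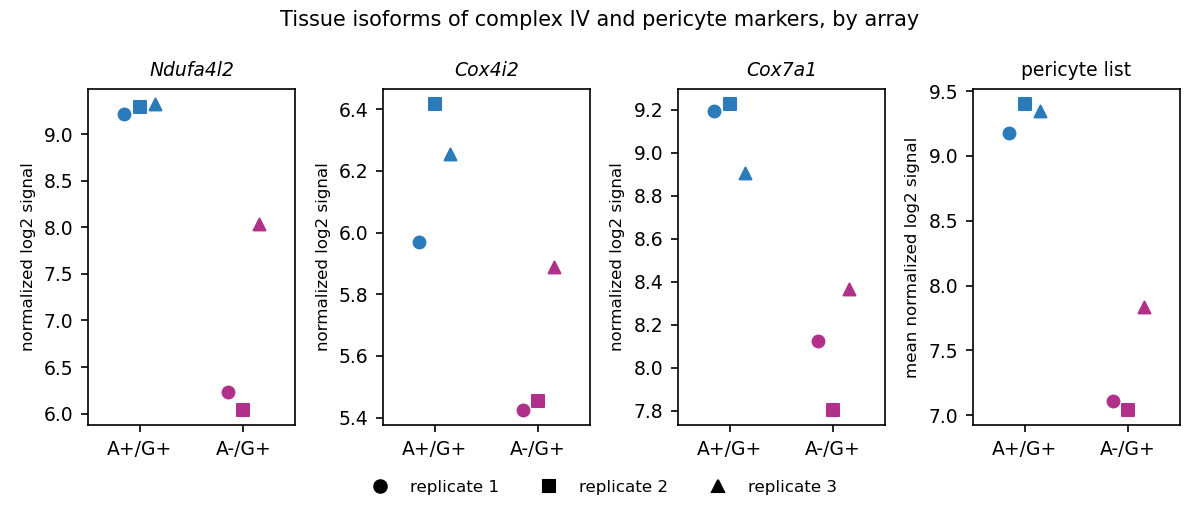
Normalized log2 signal of Ndufa4l2, Cox4i2 and Cox7a1 on each array, with the mean of the 10 pericyte markers that have a value on all arrays. Each point is 1 array, the vertical axes differ between panels and do not start at 0; in every panel the A+/G+ arrays lie above the A-/G+ arrays, and A-/G+ replicate 3 is the highest of its fraction.

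The remaining isoform pairs of complex IV gave no calls. Cox6a1 had a difference of 0.71 (adjusted p = 0.0551), Cox6b1 0.20 and the testis form Cox6b2 0.62 (adjusted p = 0.298). Cox7b had a difference of 0.64 (adjusted p = 0.107), and Cox8a one of 0.52 with 1 A+/G+ value. The tissue forms Cox6a2, Cox7b2 and Cox8b failed the background test on all A-/G+ arrays and Cox8c on all 6. In A+/G+, Cox6a2 and Cox7b2 passed it on 1 array each and Cox8b on 2. The differences of these genes are uncertain and not given here, although they enter the counts and medians of complex IV and of all members.

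For all 18 genes grouped as complex V the mean was higher in A+/G+, and the median was 0.36 with 2 calls. Among the 18, Atp5s (0.65) and Atp5sl (0.24) were placed there by their names alone and were not called. Atp5s was well above background on 1 of the 3 A-/G+ arrays, so that its difference is uncertain. Atp5a1, the alpha subunit of the catalytic F1 head, had signals of 13.31, 13.33 and 13.24 in A+/G+ and 12.86, 13.01 and 12.91 in A-/G+ (0.37 ± 0.06 (SE), adjusted p = 0.0339). Atp5j, the coupling factor 6 of the stalk, with the ETS and YY1 motifs in its promoter, had signals of 12.11, 11.99 and 12.02 compared to 11.49, 11.51 and 11.72 (0.46 ± 0.08 (SE), adjusted p = 0.0397). The fractions did not overlap in either gene. Atp5o, the subunit that confers oligomycin sensitivity, had the largest difference, 0.97 (adjusted p = 0.194). Its signals were 9.84, 9.50 and 9.47 compared to 8.36, 8.17 and 9.38, with A-/G+ replicate 3 near the A+/G+ arrays. Atp5c1-ps, a pseudogene of the gamma subunit, had a difference of 0.89 (adjusted p = 0.134), and a share of its signal may come from Atp5c1 where the sequences match. Of the 3 genes for the c-ring, which turns as protons pass, Atp5g1 had a difference of 0.30, Atp5g2 of 0.09 and Atp5g3 of 0.47, and none was called (adjusted p of 0.403 to 0.582). The second probe of Atp5g1 had a difference of -0.81. Atp5d, the delta subunit, had a difference of 0.07, which was -0.07 with the 75th percentile shift.

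Across the complexes, the medians were 0.55 for complex IV, 0.36 for complexes V and III, 0.33 for complex I and 0.18 for complex II. With the 75th percentile shift they were 0.25, 0.22, 0.19, 0.18 and 0.10 in the same order. Differences between complexes were not tested. Of 32 genes with several probes, 4 had probes of both signs among those well above background on all arrays (Atp5g1, Cox7a2l, Ndufa3 and Ndufv3). In 8 of these 32 genes, some probes were called and others were not. Over all 140 member probes, 20 were called and all of them were higher in A+/G+. Among all 55650 probes tested, calls numbered 2582 in favor of A+/G+ and 2514 in favor of A-/G+.

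The mitochondrially encoded subunits have the same assembly partners but are transcribed inside the organelle. All 13 had a lower mean in A+/G+, with differences of -0.11 to -1.23 and a median of -0.50 (-0.86 with the 75th percentile shift). ND5, a proton-pumping subunit of complex I, had signals of 12.68, 12.73 and 12.63 in A+/G+ and 13.63, 13.41 and 13.07 in A-/G+ (-0.69, adjusted p = 0.0649). ND1 (-0.96, adjusted p = 0.0289) and COX2 (-1.04, adjusted p = 0.0469) were called higher in A-/G+, but with 1 and 2 A-/G+ values left after removal of outlier spots. With these spots kept, 0 of the 13 were called (3 at an unadjusted p under 0.05), and the median was -0.51 with all 13 lower in mean in A+/G+. Over the 8 genes with all values, the mean deviation was -0.21, -0.34 and -0.28 in A+/G+ and 0.79, 0.34 and -0.30 in A-/G+. In this mean A-/G+ replicate 3 lay within the A+/G+ range, and the dimmest arrays, A-/G+ replicates 1 and 2, were the highest. By single genes, 7 of the 13 had all available A-/G+ values above all A+/G+ values, ND5 among them. The same held for 4027 of the 13013 genes well above background on all arrays. The part of brightness was not tested.

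**Figure D4:**
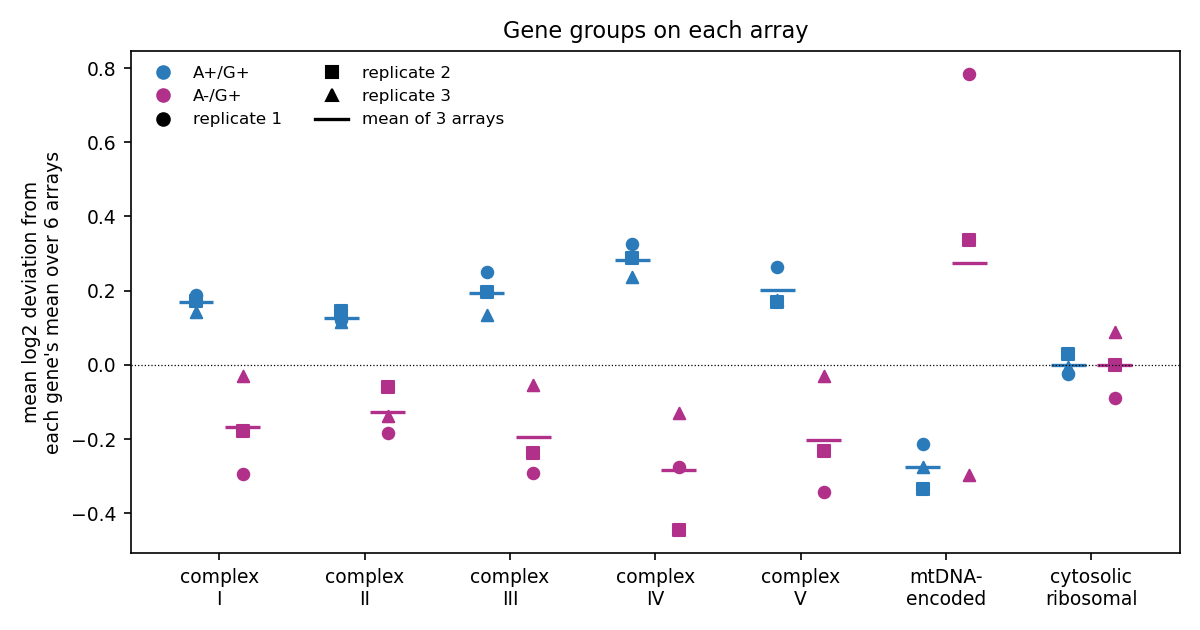
Mean log2 deviation of each gene group on each array, over the genes with a value on all 6 arrays. Points are arrays, blue for A+/G+ and magenta for A-/G+, with the replicate given by the marker and bars for the mean of 3 arrays; the A+/G+ arrays lie above all A-/G+ arrays for complexes I to V, the mtDNA-encoded subunits are highest on A-/G+ replicates 1 and 2, and the cytosolic ribosomal genes overlap.

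Markers of other cell types differed between the arrays as well. The mean signal of 15 pan-neuronal markers was 10.19, 9.76 and 9.56 in A+/G+ and 8.26, 8.33 and 9.44 in A-/G+, with 11 of 15 higher in mean in A+/G+. The mean of 11 endothelial markers was 8.19, 8.36 and 8.61 compared to 5.88, 6.32 and 8.02. The mean of 12 Purkinje cell markers was 8.93, 8.02 and 8.19 compared to 6.26, 5.95 and 6.08, with 7 called in favor of A+/G+ and 1 of A-/G+. Of 12 granule neuron lineage markers, 6 were higher in mean in each fraction, and 2 (Pax6 and Zic2) were called, both higher in A-/G+. Ciliated and ependymal markers (8 called of 15), meningeal markers (5 of 12) and oligodendrocyte lineage markers (3 of 12) were called higher in A+/G+ as well, while 0 of the 12 microglial and 0 of the 11 erythroid markers measured were called (2 and 6 at an unadjusted p under 0.05). As in the respiratory chain genes, A-/G+ replicate 3 was the nearest to A+/G+ for the neuronal, endothelial, ciliated and oligodendrocyte lineage markers. This did not hold for all lists. The meningeal mean was 11.68, 11.88 and 11.67 in A+/G+ and 10.57, 10.10 and 9.34 in A-/G+, with replicate 3 the farthest. For the Purkinje cell markers, A-/G+ replicate 1 was the nearest. The part of these cell types in the member differences was not tested.

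Genes that act beside the chain were described by lists. Of 18 carriers and accessory proteins for ATP export and phosphate import, 15 had a higher mean in A+/G+ and 6 were called (median 0.39). Among them were Slc25a4 (0.55, adjusted p = 0.0297), an exchanger of ADP and ATP, and the calcium-regulated ATP-Mg carriers Slc25a25 (0.94, adjusted p = 0.016) and Slc25a24 (0.74, adjusted p = 0.0422). Slc25a27, an uncoupling protein of neurons, was called higher in A-/G+ (-0.74, adjusted p = 0.0352). Of 19 regulators of mitochondrial biogenesis, 5 had a higher mean in A+/G+ (median -0.23), and 3 were called there. Ppargc1a, the coactivator that drives respiratory gene expression, had signals of 9.38, 9.33 and 9.18 in A+/G+ and 8.56, 8.56 and 8.32 in A-/G+ (0.82 ± 0.10 (SE), adjusted p = 0.0161). Its partner Esrra was higher by 0.51 (adjusted p = 0.0384) and the related receptor Esrrb by 2.33 (adjusted p = 0.041). Called higher in A-/G+ were Pprc1 (-1.10, 1 A-/G+ value, adjusted p = 0.0377; -0.80 and 0.0486 with outlier spots kept) and the respiratory gene factor Nrf1 (-0.47, adjusted p = 0.0293), which was named after its value had been seen. The 75 mitochondrial ribosomal protein genes had a median of 0.01, and the 3 that were called were all higher in A-/G+. In this direction 4.94% of all genes were called. With the 75th percentile shift it was 1 of the 75, compared to 23.6% of all genes.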

How the data were processed

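The authors deposited the scanner output of 6 one-color Agilent mouse arrays, in which Feature Extraction 10.7.3.1 gives each spot's intensity after background correction, and a table of quantile-normalized log2 values, used here as an alternative. Probe positions and gene names are those of the array's annotation (mm9).

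Controls were left out, as were outlier spots by the scanner's marks. Log2 intensities were quantile normalized, the spots of a probe averaged, and the fractions compared with limma 3.58.1 (lmFit and eBayes, R 4.3.3) and Benjamini-Hochberg adjustment over all probes. The methods' t-test was an alternative. A call is an adjusted p of at most 0.05, with medians 4-fold apart as a second rule. The fit was tested on simulated data.

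The members, lists and complexes were chosen with earlier results of these data known. Ndufa4 and Ndufa4l2 were placed in complex IV and the Ndufaf genes among assembly factors. Atp5s and Atp5sl were kept in complex V by their names and are named for that reason. Named are the called members, the 2 highest and 2 lowest differences per complex among genes well above background, the isoform families, up to 4 called genes per list, Atp1b2 and Slc1a3. Genes named beyond this rule (Ndufaf5, Rgs5, Nrf1, ND5 and the genes listed by count) were chosen after their values were seen. Alternatives were the 75th percentile shift, normexp (offset 50), the authors' table, a dim-probe filter, trend and robust variance, outliers kept, the mean of probes, arrays left out in turn, and a replicate block. The number of arrays limits the precision.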

Additional observations from a re-analysis of the deposited data

How the results depend on the processing

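The 15 members called higher in A+/G+ became 3 with the 75th percentile shift, 39 with normexp background correction, 8 with the methods' t-test and 0 with the 4-fold rule, and ranged from 0 to 39 when single arrays were left out. The members called higher in A-/G+ were 2 with the 75th percentile shift and 0 to 1 with single arrays left out. The cause was not tested. With the replicate number as a block, 0 members were called and 0 probes in all (11456 at an unadjusted p under 0.05). Samples of the same number did not deviate together (r = 0.19, 0.11 and -0.12 for replicates 1, 2 and 3), so the numbers were not taken to pair the samples, and only the number is shared. The medians with the 75th percentile shift were 0.18 over all members, 0.18 for complex I, 0.10 for II, 0.19 for III, 0.25 for IV and 0.22 for V. Complex III had a median of 0.55 with the mean of all probes, and complex II 0.17 to 0.23 with single arrays left out.

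The sign turned for Atp5d (-0.072 with the 75th percentile shift, -0.0094 with normexp), Atp5g1 (-0.25 with the mean of probes), Atp5g2 (-0.30 with the shift), Cox7a2l (-0.21 with the shift, -0.022 with the replicate block, -0.22 with the mean of probes), Cox8b (-0.014 with normexp), Cyc1 (-0.14 with the shift), Ndufv2 (0.26 with normexp) and Sdhb (-0.011 with the shift). With single arrays left out, the range was -0.017 to 0.21 for Atp5d, -0.022 to 0.13 for Cox7a2l, -1.05 to 0.21 for Cox7b2, -0.041 to 0.071 for Cyc1 and -0.45 to 0.050 for Ndufv2. Cox8b and Cox7b2 were near background, so their signs carry no information. The slide could not be fitted as a block. Medians over genes well above background and over complex IV without Ndufa4 and Ndufa4l2, both chosen after seeing the data, were 0.35 over all members and 0.55.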

Other observations

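Genes of the pathways that feed the respiratory chain were also measured. Of 26 genes of the tricarboxylic acid cycle and of pyruvate entry, 22 had a higher mean in A+/G+ and 7 were called (median 0.25, limma). Pdha1, a subunit of pyruvate dehydrogenase, was higher by 0.73 (adjusted p = 0.00975), and citrate synthase (Cs) by 0.52 (adjusted p = 0.0187). The inhibitory kinases of pyruvate dehydrogenase were called in the same direction, Pdk4 by 1.89 (adjusted p = 0.0182) and Pdk1 by 1.20 (adjusted p = 0.0142). Of 16 glycolysis enzymes, 14 had a higher mean in A+/G+ and 4 were called. The largest difference was that of Aldoc, the brain aldolase of astrocytes (1.35, adjusted p = 0.017). Pfkl, the liver phosphofructokinase, was called higher in A-/G+ (-0.40, adjusted p = 0.0455) and was named after its value had been seen.

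Of 20 genes known to respond to hypoxia, 17 had a higher mean in A+/G+ and 5 were called. Car9, a membrane carbonic anhydrase, failed the scanner's background test on all A-/G+ arrays and its signal in A+/G+ was at least 5.55-fold higher, measured against the lowest signal well above background on each A-/G+ array (adjusted p = 0.0038). The peptide Adm was higher by 2.62 (adjusted p = 0.0134), the glucose transporter Slc2a1 by 1.92 (adjusted p = 0.0296) and Hif3a by 1.55 (adjusted p = 0.0137). Slc2a1 is also known as a transcript of brain endothelium, and endothelial markers were higher in mean in A+/G+ for 12 of 12 genes with 2 called. The part of endothelium was not tested.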
